A study of Mus musculus with 21 samples.

Results

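The regions described here are 1931 of the 7216 H2Bub1 domains (26.8%) listed in mouse ES cells that overexpress Fbxl19. They are the domains that overlap, by as little as 1 bp, no domain of the 4 other H2Bub1 lists of the study. Those 4 lists come from ES cells, ES cells with Fbxl19 knocked down, differentiated cells and differentiated cells with Fbxl19 knocked down. The 1931 domains are called OE-high-only domains below. They covered 50.8 Mb, which was 20.7% of the 246 Mb covered by all OE-high domains. The regions were chosen by the H2Bub1 lists themselves, so their number, length, H2Bub1 score and distance to the other lists are descriptions and support nothing.

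H2Bub1 is histone H2B that carries a single ubiquitin. Rnf20 is the ubiquitin ligase that places it, together with its partner Rnf40, and the mark is found along transcribed genes, where it accompanies elongating RNA polymerase. Fbxl19, of the F-box family, has a zinc finger of the CXXC type that binds CpG without methylation. In ES cells it is known to sit at CpG islands, which mark many promoters.

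ChIP-seq, the sequencing of DNA precipitated with a chromatin protein, was run on 21 samples in 12 groups from the mouse line J1. These are embryonic stem (ES) cells, which leukemia inhibitory factor in the medium keeps pluripotent. H2Bub1 was precipitated with an antibody in 3 samples of J1 ES cells, 2 of J1 ES cells with Fbxl19 knocked down, 3 of the OE-high clone, 2 of J1 cells differentiated to day 4 and 2 of knockdown cells differentiated to day 4. The OE-high clone carries flag-biotin tagged Fbxl19 at more than 5-fold the usual amount. A second tagged clone, OE-low, stays below the endogenous amount, and from these clones tagged Fbxl19 was pulled down on streptavidin beads in 2 samples each. Rnf20 was pulled down the same way in 1 sample. The OE-low and Rnf20 samples are labelled as J1 cells that contain BirA, a biotin ligase, and the label of the OE-high samples names J1 alone. Another 4 samples were input DNA, which had no list. OE-high is described as a selected clone, so what belongs to the clone and what belongs to the amount of Fbxl19 cannot be told apart.

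Each H2Bub1 and Fbxl19 list combines its samples, and the Rnf20 list has 1 library. No value per replicate could be used, so differences have no replicate spread beside them and no test was run. Ranges in brackets after a share are exact 95% intervals (Clopper-Pearson). They cover counting error only, and neighbouring regions are not independent. The authors' H2Bub1 score is above 7 in every line of these lists, so a domain missing from a list may have fallen short of that threshold. The headers carry a number with the suffix M, which was 46 for OE-high, 60 for ES, 46 for the knockdown, 36 for differentiated and 41 for differentiated knockdown cells. What that number counts is not stated, and the depth per sample is unknown. The lists come from bulk cells, so a mark present in fewer cells and a weaker mark in every cell cannot be told apart.

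Among the other OE-high domains, 2708 (37.5%) met the differentiated list and not the ES list, and they are called differentiated-shared domains here. Another 2510 (34.8%) met the ES list and are called ES-shared domains. The remaining 67 (0.928%) met a knockdown list alone. These classes are the comparison throughout.

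OE-high-only domains were shorter and had lower scores than the other classes, a direction that the rule favours. Their length ran from 200 to 289600 bp with a median of 13000 bp and quartiles of 5800 and 30800 bp. The median length was 23200 bp in differentiated-shared and 26800 bp in ES-shared domains. The authors' score had a median of 8.79 in OE-high-only domains, with quartiles of 7.79 and 10.2 and a highest value of 26.8. Differentiated-shared domains had a median score of 12.1 and ES-shared domains one of 14.8. The OE-high-only domains thus lay near the lower limit of the list, and 1083 of them were in the lowest of 4 equal score classes of the OE-high list (up to 9.07) and 52 in the highest (above 15.5).

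**Figure D1:**
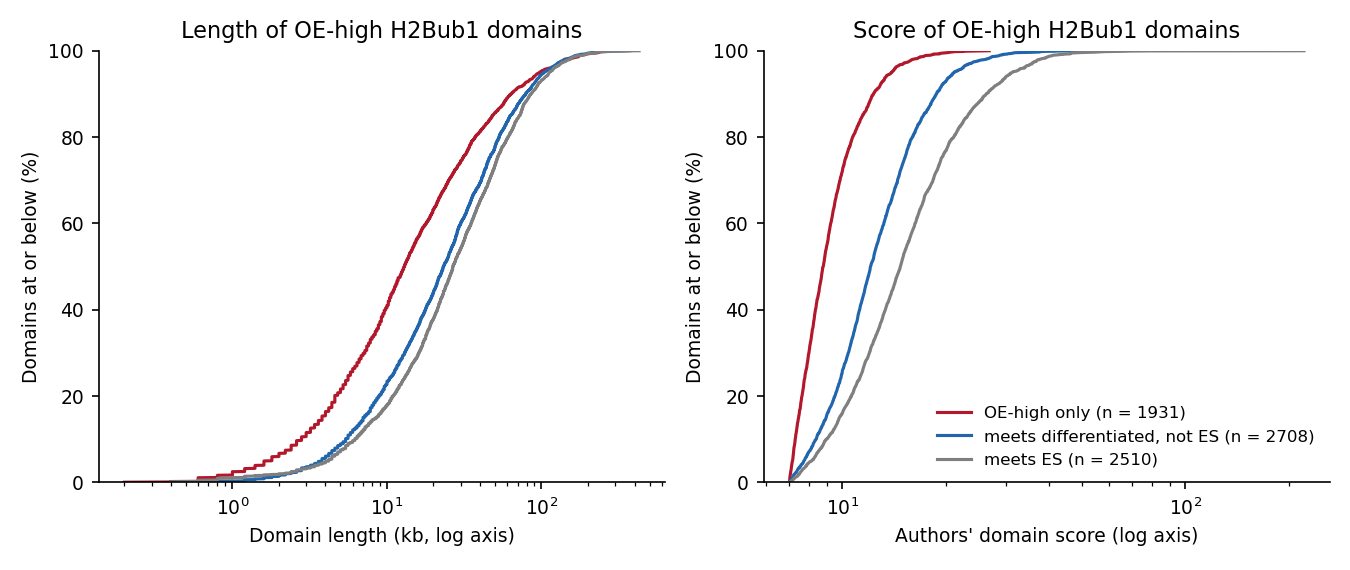
Cumulative share of OE-high H2Bub1 domains (vertical axis, %) by length in kb (left) and by the authors' score (right), both on log axes, for OE-high-only domains (red), differentiated-shared domains (blue) and ES-shared domains (grey). The red lines lie to the left for most of their course, with medians of 13000 bp and 8.79 against 26800 bp and 14.8 for ES-shared domains, while the longest domains of the 3 classes overlap in length.

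The threshold of the rule falls between domains that touch another list and domains that come close to one. The members nearest to another list were chr11:116331800-116332999, which abuts one with a gap of 0 bp, chr19:10622000-10623799 at 200 bp and chr8:72806800-72810799 at 400 bp. The non-members with the shortest overlap were chr10:79003000-79004199, with 200 bp in common, and chr10:9707000-9707399 and chr10:71759800-71760199, which have 400 bp in common and are 400 bp long, so that another list covers them whole. Few domains lay close to that line. A total of 7 members were within 1 kb of another list, and the median gap was 60800 bp. Of the 5285 non-members, 91 were covered over less than 10% of their length, and the median non-member was covered over 96.3%. The number of members depended on where the lists end. With only the top 50% of each of those lists by score it was 4066. Absence from the ES list alone gave 4706, and the top 50% of the OE-high list held 275.

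The differentiated list was the nearest to the members, with a median gap of 70200 bp. The median gap was 196600 bp to the ES list, 365000 bp to the knockdown list and 596000 bp to the differentiated knockdown list. These gaps follow the sizes of the lists, which held 5125, 2937, 1813 and 1090 domains in that order.

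Fbxl19, pulled down from the same clone, was listed in 967 of the 1931 OE-high-only domains (50.1%, 47.8 to 52.3). Over all OE-high domains the share was 67.5%. It was 70.6% (68.8 to 72.3) in differentiated-shared and 77.7% (76.0 to 79.3) in ES-shared domains. The difference was -20.5 percentage points (-23.3 to -17.6) from the former and -27.7 (-30.4 to -24.8) from the latter, so OE-high-only domains held Fbxl19 less often. With the top 50% of Fbxl19 peaks by score the share of members was 28.4%.

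Fbxl19 at the sub-endogenous amount was listed in 145 OE-high-only domains (7.51%, 6.37 to 8.78), against 12.4% over all OE-high domains. The share was 10.9% (9.74 to 12.1) in differentiated-shared and 17.9% (16.4 to 19.4) in ES-shared domains. The OE-low list is much the shorter, with 2213 peaks against 13669, so the shares of the clones cannot be set against each other. With the top 50% of OE-low peaks the members' share was 4.09%.

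Rnf20, the ligase itself, was listed in 354 OE-high-only domains (18.3%, 16.6 to 20.1), against 31.7% over all OE-high domains. Differentiated-shared domains had 28.7% (27.0 to 30.5) and ES-shared domains 44.8% (42.9 to 46.8). The Rnf20 pulldown came from BirA-containing J1 cells that are not labelled as overexpressing Fbxl19. Where Rnf20 lay in the OE-high clone was therefore not measured. With the top 50% of Rnf20 peaks the members' share was 11%.

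Taking the 3 pulldowns as a set, the most frequent state of a member was to hold no peak of any. That was so for 859 members (44.5%, 42.3 to 46.7), against 27.3% of all OE-high domains, 25.4% of differentiated-shared and 16.1% of ES-shared domains. Another 708 members (36.7%) had OE-high Fbxl19 without Rnf20, against 40.7% over all OE-high domains. Both proteins were listed in 259 members (13.4%, 11.9 to 15.0), against 26.8% over all OE-high domains. Rnf20 without OE-high Fbxl19 was found in 95 members (4.92%, 4 to 5.98), close to the 4.89% over all OE-high domains. Peaks of all 3 lists were found in 65 members (3.37%), against 7.51%. Relative to ES-shared domains, members had fewer domains with Fbxl19 and Rnf20 together (13.4% against 38.8%), while the intervals overlapped for Fbxl19 without Rnf20 (34.5 to 38.9 against 37 to 40.8). Relative to differentiated-shared domains, members were lower in both, with 13.4% against 25% for the proteins together and 36.7% against 45.6% (43.7 to 47.5) for Fbxl19 without Rnf20.

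Where a member held both proteins, their peaks mostly coincided, as they did in the other classes. In 229 of the 259 members with both (88.4%, 83.9 to 92.0), at least 1 Fbxl19 peak overlapped an Rnf20 peak, near the 87.9% of all OE-high domains with both. Most members with Fbxl19 had a single peak. The count was 1 peak in 748 members, 2 in 146, 3 or 4 in 57 and 5 or more in 16, with a highest count of 9. Rnf20 had 1 peak in 273 members, 2 in 51, 3 or 4 in 26 and 5 or more in 4, with a highest count of 7.

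Longer domains have more room for a peak, so the shares were also compared within classes of length. In OE-high-only domains the Fbxl19 share rose with length, from 27.9% (23.6 to 32.6) of the 401 members under 5 kb to 70.2% of those of 40 kb or more. It was below both other classes in each of the 5 length classes. At 10 to 20 kb it was 47.6%, against 64.3% in differentiated-shared and 78.2% in ES-shared domains. At 40 kb or more the values were 70.2%, 81.6% and 84.5%.

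The Rnf20 share of members went from 12% under 5 kb to 28.1% at 40 kb or more. ES-shared domains held Rnf20 in 45.2% and 50.7% of those classes. Against differentiated-shared domains the intervals overlapped under 5 kb (12% against 14.7%, 10.4 to 20). They also overlapped at 10 to 20 kb (17.5%, 14.1 to 21.4, against 22.8%, 19.4 to 26.5) and at 20 to 40 kb (22.1%, 17.8 to 26.8, against 27.8%, 24.5 to 31.3). They did not at 5 to 10 kb (13.2% against 23.6%) or at 40 kb or more (28.1% against 39.8%). Per Mb of domain, members had 26.1 OE-high Fbxl19 peaks and 9.49 Rnf20 peaks, and ES-shared domains had 32.1 and 22.5. Per unit of length the classes were thus closer for Fbxl19 than for Rnf20.

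**Figure D2:**
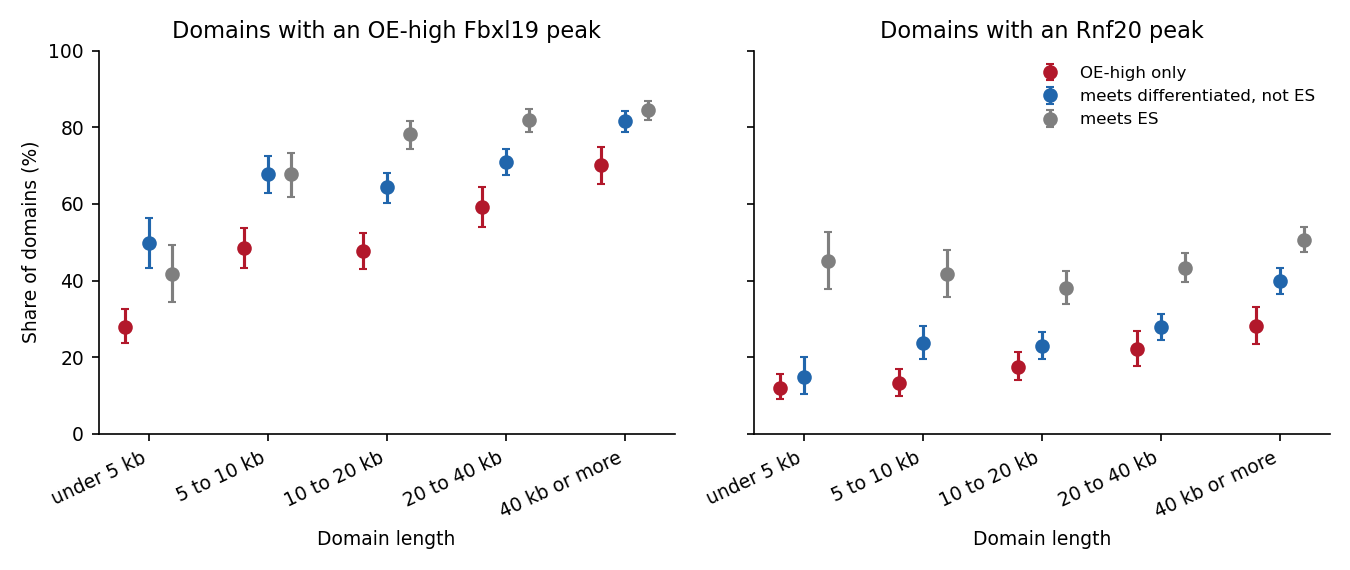
Share of OE-high H2Bub1 domains (vertical axis, %) that hold an OE-high Fbxl19 peak (left) or an Rnf20 peak (right), by domain length (horizontal axis) for the 3 classes; bars are exact 95% intervals for counting error only. OE-high-only domains (red) have the lowest share in each length class, from 27.9 to 70.2% for Fbxl19 and from 12 to 28.1% for Rnf20.

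Part of the difference went with length and score. When ES-shared domains were weighted to the members' mix of 5 length classes, their Fbxl19 share was 70.4%, and with the 4 score classes added it was 59.1%. The difference of the members from it was then -9 percentage points, in place of -27.7. Differentiated-shared domains weighted on length and score had 60.8%, which gave a difference of -10.8 in place of -20.5. For Rnf20 the weighted ES-shared share was 37.2%, and the difference -18.9 in place of -26.5. Against differentiated-shared domains the Rnf20 difference was -3.93 in place of -10.4. For OE-low Fbxl19 the differentiated-shared share became 7.63%, next to the members' 7.51%.

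Score within the members went with small changes in these shares. From the lowest to the highest of 4 equal classes of the members' own scores, the Fbxl19 share was 44.7%, 47.7%, 52.8% and 55.1%, and the Rnf20 share 15.9%, 16.2%, 20.7% and 20.5%. In the highest score class of the whole OE-high list, 28 of 52 members held Fbxl19 (53.8%, 39.5 to 67.8), against 82.7% (80.3 to 84.8) of the ES-shared domains there. The Fbxl19 share was thus lower in members than in ES-shared domains of that class. The class has no upper limit, and the highest score was 26.8 in members and 222 in ES-shared domains. Lengths were not matched within the class either. The part of length and score in this difference was not tested.

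Seen from the peaks, 1324 of the 13669 OE-high Fbxl19 peaks (9.69%, 9.20 to 10.2) lay in OE-high-only domains. Another 6301 (46.1%) lay outside OE-high domains altogether, and 3152 (23.1%) lay in ES-shared domains. The share in members hardly moved with the strength of the Fbxl19 peak, at 9.12%, 10.1%, 10.1% and 9.39% from the lowest to the highest of 4 classes of Fbxl19 score. Fbxl19 peaks in members had a median score of 10.7 and a median length of 683 bp. In ES-shared domains these were 11 and 814 bp, and outside domains 10.5 and 473 bp.

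Of the Fbxl19 peaks in members, 276 (20.8%, 18.7 to 23.1) overlapped an Rnf20 peak, near the 22.4% of all OE-high Fbxl19 peaks. That lay between the 14.6% outside domains and the 34.8% (33.1 to 36.5) in ES-shared domains. An OE-low peak was overlapped by 156 of them (11.8%, 10.1 to 13.6), against 12.9% of all. Outside domains the share was 12.2% (11.4 to 13.1), so these intervals overlapped.

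The members held 482 of the 8606 Rnf20 peaks (5.60%), and 267 of those 482 (55.4%, 50.8 to 59.9) overlapped OE-high Fbxl19. That share was 54.2% in ES-shared and 64.3% in differentiated-shared domains. Over all Rnf20 peaks it was 38.4%, and outside OE-high domains 22.7%. They held 158 of the 2213 OE-low peaks (7.14%). Of these, 138 (87.3%, 81.1 to 92.1) overlapped an OE-high peak, against 80.4% of all OE-low peaks. That share was 91.2% in differentiated-shared and 91.9% in ES-shared domains, and 71% outside OE-high domains. An Rnf20 peak was overlapped by 62 (39.2%, 31.6 to 47.3), against 34.0% of all OE-low peaks. Here the share was 40.3% in differentiated-shared and 53.3% in ES-shared domains, and 22.4% outside.

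Fbxl19 was denser at the ends of members than within them. A summit of an OE-high Fbxl19 peak lay within 1 kb of an end, on either side of it, in 740 members (38.3%, 36.1 to 40.5). The share was 48.4% over all OE-high domains, 51.4% in differentiated-shared and 53.2% in ES-shared domains. Weighted to the members' mix of length and score, the latter classes had 44.8% and 41.3%, differences of -6.5 and -2.99 percentage points. The left end had one in 386 members (20%) and the right end in 376 (19.5%), and these did not differ beyond counting error. Over all OE-high domains these shares were 25.9% and 25%. Both ends had one in 22 members (1.14%), against 2.52% over all OE-high domains, so a summit at both ends was rare in the whole list. Which end is a gene start was not analysed here.

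Of the 1029 Fbxl19 summits inside members, 424 (41.2%, 38.2 to 44.3) lay within 1 kb of an end, in a margin that made up 7.42% of the members' length. The same held in the other classes, with 34.6% of summits in 5.7% of the length in differentiated-shared and 29.1% in 5.07% in ES-shared domains. In members of at least 10 kb, with 2302 ends, there were 101 Fbxl19 summits per 1000 ends in the first kb outside and 116 in the first kb inside. One bin further there were 16.5 outside and 28.2 inside. The summits were thus most frequent in the first kb on each side of an end.

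Rnf20 followed the same layout at a lower level. A midpoint of an Rnf20 peak lay within 1 kb of an end in 244 members (12.6%, 11.2 to 14.2), against 19.3% over all OE-high domains. Inside members, 162 of 440 Rnf20 midpoints (36.8%, 32.3 to 41.5) were in that margin, against 29.7% in differentiated-shared and 25.5% in ES-shared domains. In the members of at least 10 kb there were 28.2 midpoints per 1000 ends in the first kb outside and 39.5 in the first kb inside. One bin further there were 6.52 outside and 17.4 inside, and from 2 to 3 kb inside there were 7.82. With OE-low summits in place of OE-high ones, 5.08% of all members had one within 1 kb of an end.

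**Figure D3:**
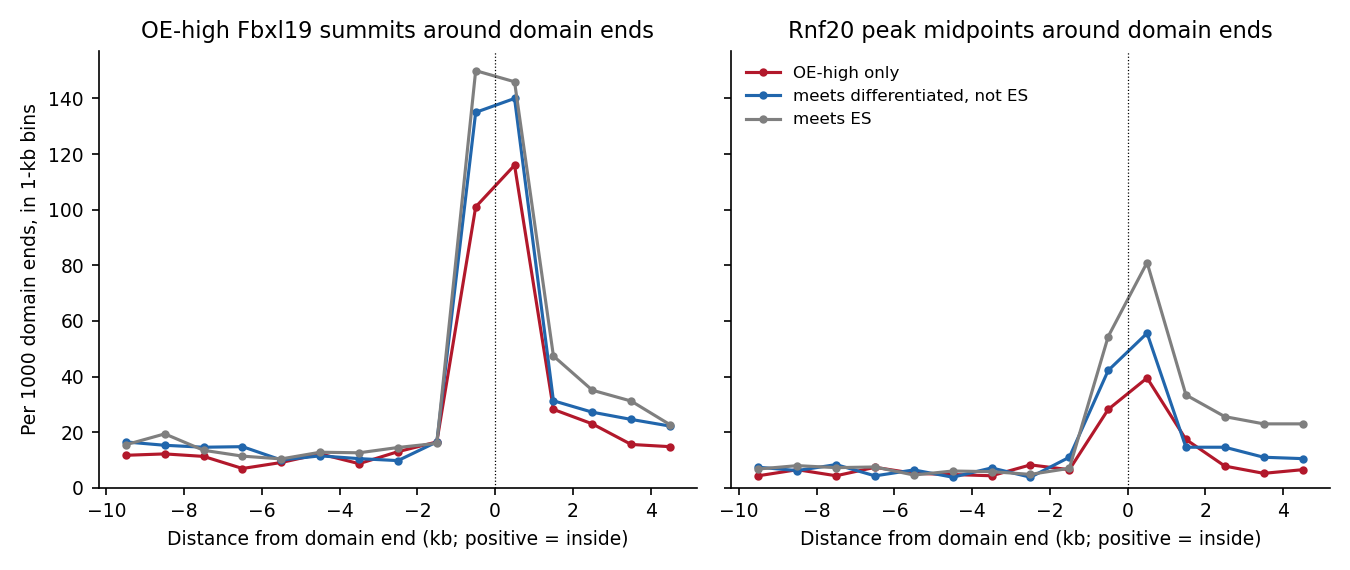
OE-high Fbxl19 summits (left) and Rnf20 peak midpoints (right) per 1000 domain ends (vertical axis) in 1-kb bins by distance from the end (horizontal axis, kb, positive inside), in domains of at least 10 kb of the 3 classes; lines join bins. All 3 classes peak in the bins on either side of the end, and OE-high-only domains (red) reach 101 and 116 Fbxl19 summits there, below the other classes.

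For the 964 members without OE-high Fbxl19, the nearest OE-high Fbxl19 peak was a median of 45940 bp away. It lay within 1 kb of 36 of these members and within 20 kb of 284 (29.5%). For 305 (31.6%) it was 100 kb or more away. The same distances were not taken for the other classes, so whether these are large or small for such domains is not known. Members without Fbxl19 were shorter than the members with it, with medians of 9800 against 18600 bp. Their median score was 8.63 against 8.99.

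Distance from the other H2Bub1 lists went with the Fbxl19 share without a steady order. It was 38.0% (31.2 to 45.1) of the 200 members within 10 kb of another list's domain, 52.4% from 10 to 50 kb, 56.0% (52.2 to 59.8) from 50 to 200 kb and 41.9% (36.9 to 47.0) at 200 kb or more. Median length over the same classes was 10700, 10400, 15000 and 16600 bp. The members closest to and farthest from another list thus held Fbxl19 less often than those between, and the most distant were the longest. Rnf20 was in 13.5%, 21.2%, 18.9% and 15.0% of the members of these classes.

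Members made up 14.0% (11.1 to 17.4) of the OE-high domains of chromosome 1, the lowest share, and 41.0% (28.6 to 54.3) of those of chromosome X, the highest, where there were 25 of 61. The median over chromosomes was 28.2%. Chromosome 11 was also low, with 19.5% (16.4 to 22.8). For chromosomes 1 and 11 the interval lay below the 26.8% of the whole list. Above it lay the intervals of chromosomes 2 (31.4%, 27.7 to 35.2), 16 (33.5%, 27.5 to 39.9) and X. For chromosome 2 this rested on the run of members described below: without it the share was 27.3% (23.7 to 31.1).

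The Fbxl19 share of members ranged from 20% (6.83 to 40.7) on chromosome X to 59.2% (48.8 to 69.0) on chromosome 14, with a median of 51.2%. The Rnf20 share ranged from 4.35% (3 of 69) on chromosome 1 to 43.4% (49 of 113, 34.1 to 53.0) on chromosome 8, with a median of 16.9%. Rnf20 peaks as such were unevenly spread, with 1.27 per OE-high Fbxl19 peak on chromosome 8 and 0.272 on chromosome 1. The highest ratio was 5.21, on chromosome X, which had 271 Rnf20 and 52 OE-high Fbxl19 peaks. There the Rnf20 share of members was 12% (3 of 25, 2.55 to 31.2), so the shares did not simply follow this ratio. The part of that spread in the members' shares was not tested. Without chromosome 8 the Rnf20 share of members was 16.8% (15.1 to 18.6).

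**Figure D4:**
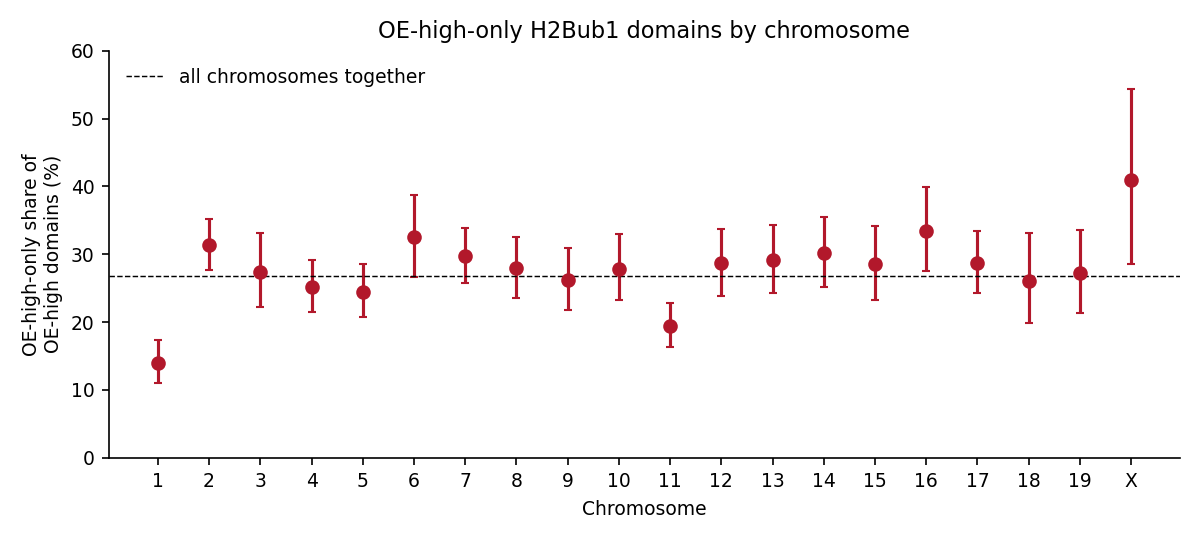
Share of OE-high H2Bub1 domains that are OE-high-only (vertical axis, %) on each chromosome (horizontal axis), with exact 95% intervals for counting error only and a dashed line at the share of all chromosomes together, 26.8%. Chromosomes 1 (14.0%) and 11 (19.5%) lie below the line and chromosome X (41.0%) has the highest share and the widest interval.

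Members tended to lie next to members. The nearest other OE-high domain was itself a member for 708 of the 1931 (36.7%, 34.5 to 38.9). Members made up 26.8% of all OE-high domains. For differentiated-shared domains the nearest was a member in 23.3% (21.7 to 24.9) and for ES-shared domains in 21.0% (19.4 to 22.6). The median gap from a member to its nearest OE-high domain was 33800 bp, and 31 members had one within 1 kb. Counted along each chromosome, 874 members stood alone between other OE-high domains. There were 258 runs of 2 consecutive members, 94 of 3, 33 of 4, 7 of 5, 5 of 6 and 4 of 7.

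A single run was far longer, with 34 consecutive members at chr2:174989200-177056999, a span of 2.07 Mb near the distal end of chromosome 2. The distal part of this chromosome is known for a tandem array of zinc finger genes, which are close copies of one another. Neither genes nor repeats of mm9 were analysed here, and how reads with several matches were treated is not stated. No domain of the 4 other H2Bub1 lists lay in the span (0 in each).

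The domains of the run were alike in size. Their lengths ran from 8800 to 62000 bp with a median of 11200 bp, and 26 of the 34 were between 8 and 13 kb. The first 3 were 12.2, 9.2 and 10.6 kb long. The gaps between them had a median of 42600 bp, and together they covered 25.6% of the span. Their scores ran from 7.88 to 17.3 with a median of 9.61, above the 8.79 of all members.

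The domains of the run held few peaks of the pulled-down proteins. Of its 34 members, 2 held OE-high Fbxl19 (5.88%), namely neighbours of 62.0 and 57.0 kb, the longest of the run. Another 2 held Rnf20, and none held OE-low Fbxl19, with 0 such peaks in the whole span. Rnf20 was not missing from the span, which had 10 Rnf20 peaks (4.84 per Mb), and the domains covered 25.6% of it. OE-high Fbxl19 had 4 peaks there. Leaving out the run, 50.9% of the members held Fbxl19 and 18.6% held Rnf20, and the nearest OE-high domain was a member in 35.6%.

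**Figure D5:**
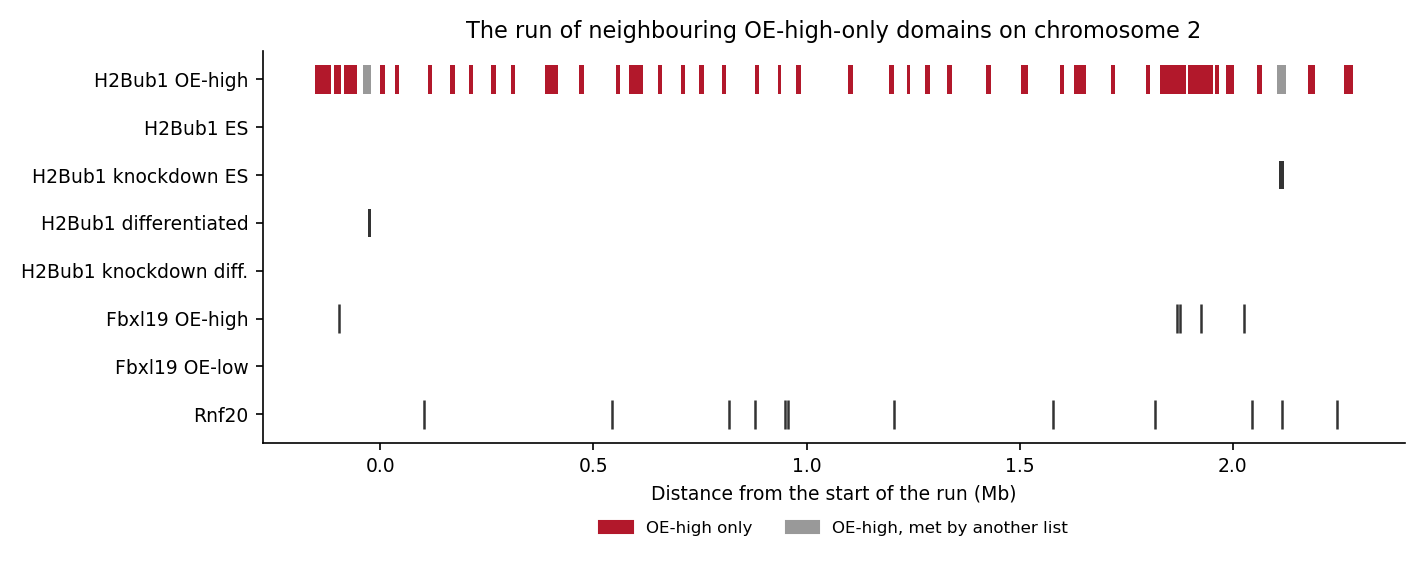
Map of the run of 34 neighbouring OE-high-only domains on chromosome 2, with distance from its start in Mb (horizontal axis) and 1 row per list; bars are H2Bub1 domains to scale and ticks are peak centres, with a margin on each side of the run. OE-high-only domains (red) repeat across the span of 2.07 Mb, in which the 4 other H2Bub1 lists have 0 domains, while the 4 OE-high Fbxl19 peaks lie near the far end and the 10 Rnf20 peaks are scattered.

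Windows of 1 Mb, chosen after the run was seen, showed where else members were crowded. In the 1014 windows with a member the median was 1 member, and 12 windows held 7 or more, up to 17. Those that the run on chromosome 2 touched were among them, where 17 of 17, 15 of 15 and 8 of 11 OE-high domains were members. In the last of these, chr2:177000000-177999999, only the final domain of the run lay, and the other members were beyond it. Of its 8 members, 0 held OE-high Fbxl19 and 0 held Rnf20. Leaving out the run thus keeps most members of that window. The 9 dense windows that did not overlap the run were also rich in other OE-high domains. Members were from 7 of 20 to 8 of 13 of the OE-high domains there, against 26.8% over the whole list. The windows were picked for their number of members, so a high share is favoured by the choice and is only a description. These 9 windows held 74 members, of which 26 (35.1%, 24.4 to 47.1) had OE-high Fbxl19 and 14 (18.9%) had Rnf20. The fullest of them, chr13:67000000-67999999, had 12 members among 21 OE-high domains, of which 1 member held Fbxl19 and 0 held Rnf20. In chr12:22000000-22999999, 0 of 8 held Fbxl19 and 1 held Rnf20. In contrast, 6 of the 8 members in chr8:74000000-74999999 held Fbxl19 and 4 held Rnf20. Crowded members were thus not alike in what they held.

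Of the 10 members with the highest H2Bub1 scores, 3 held OE-high Fbxl19, 1 held OE-low Fbxl19, 3 held Rnf20 and 5 held none. The top member, chr7:50433000-50490599 (57.6 kb, score 26.8), held 4 Rnf20 peaks between 14023 and 22191 bp from its start and no Fbxl19 peak. The second, chr7:49959200-49994399 (35.2 kb, score 24.3), and the fourth, chr7:50333400-50347999 (14.6 kb, score 22.6), lie before it in the same 1 Mb and held no peak. With chr7:50076600-50122599 (46.0 kb, score 15.4) and chr7:50369400-50373999 (4.6 kb, score 10.1), which also held none, they form a run of 5 consecutive members that ends with the top one. The run lay between differentiated-shared domains, such as chr7:50509000-50526399 with a score of 19.4.

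Among the other high-scoring members, chr14:100655000-100686599 (31.6 kb, score 20.4) was the one with peaks of all 3 lists. Its OE-high Fbxl19 summit lay 2792 bp inside the right end, the OE-low summit 2837 bp and an Rnf20 midpoint 2476 bp inside the same end. The nearest domain of another H2Bub1 list was 909 kb away. At chr4:124797400-124805199 (7.8 kb, score 20.7) there were 2 Fbxl19 peaks, with 1 summit at -105 bp from the right end, counted inward and thus just outside. Small domains were also among the highest scores, with chr13:100946200-100946799 at 0.6 kb and chr8:19652600-19652999 at 0.4 kb, neither with a peak.

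The 5 longest members had scores near the threshold. They were chr18:69502800-69792399 (score 7.04), chr4:84033800-84321199 (7.20), chr18:65047000-65315199 (7.95), chr8:90216400-90483399 (7.40) and chr2:20441400-20683799 (8.30). Fbxl19 was in 4 of the 5 and Rnf20 in 3. In the longest, of 290 kb, an Fbxl19 summit lay 1243 bp inside the left end. In the second, of 287 kb, one lay at -221 bp from the right end, counted inward,, and in chr8:90216400-90483399 one lay 592 bp inside the right end with an Rnf20 midpoint 807 bp inside it. In chr2:20441400-20683799 an Fbxl19 summit lay at -193 bp from the left end, counted inward, and OE-low Fbxl19, OE-high Fbxl19 and Rnf20 centres lay together 149785, 149721 and 149757 bp from that end. The 4 long members with Fbxl19 thus had a summit at or near 1 end, and each also had a summit farther inside. Such summits lay 250267 bp from the left end in the longest member. In chr2:20441400-20683799 they lay 135177 to 203158 bp from the left end.

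The members with the most Fbxl19 peaks were chr14:55678600-55734999 and chr4:117037000-117169599, with 9 peaks each. The former, of 56.4 kb, also held 3 OE-low and 4 Rnf20 peaks, and the latter, of 133 kb, 0 OE-low and 3 Rnf20 peaks. Behind them came chr3:89179000-89247799 with 7, and chr15:25684600-25743799 and chr3:96496000-96599799 with 6 each. All 5 held Rnf20 as well. In the first of them the summits were spread through the domain, at 12221 to 54328 bp from the start. In chr15:25684600-25743799 (59.2 kb) they lay toward the start, from -88 bp, just outside, to 26420 bp inside. The same was so in chr3:96496000-96599799 (104 kb), where they lay from 613 to 35739 bp. All 5 members had summits well inside, so in these members Fbxl19 was not limited to the ends.

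The members with the most Rnf20 peaks were chr2:71181000-71214599 with 7, then chr7:152035800-152060599, chr12:77311400-77334599 and chr8:4239000-4276199 with 5 each, and the top-scoring member with 4. OE-high Fbxl19 was listed in 4 of these 5, in numbers of 3, 5, 1 and 4. In chr2:71181000-71214599 an Rnf20 midpoint 11309 bp from the start lay beside an OE-low Fbxl19 summit at 11466 bp and an OE-high summit at 10880 bp. The top-scoring member was the exception in this group, with Rnf20 and no Fbxl19 in either clone.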

How the data were processed

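Analysed were 8 deposited lists on mm9. Per the submitters' processing notes, BWA 0.5.9-r16 and MACS were used, with roles not given in the sources used here. The H2Bub1 track lines end in BCP, a caller of broad domains, per the file headers. The authors' deposited score ranks regions within a list, and its formula is not given. A deposited column holds each domain's length in base pairs, per the file headers. Domains were read as counted from 0 and Fbxl19 peaks from 1, and all positions are printed from 1. The centre of an Fbxl19 peak was the summit listed, and of an Rnf20 peak its midpoint.

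A peak or domain counted as shared with at least 1 bp of overlap. Shares carry exact Clopper-Pearson intervals at 95%, and the interval of a difference adds them in squares. Weighted shares are averages over length classes, or length classes and 4 equal score classes of the OE-high list, in the members' proportions. Samples were grouped by title. Replicate 3 of the OE-high H2Bub1 group has no list in its description, so it may not have entered the combined list. The OE-high Fbxl19 samples name the H2Bub1 list in their description, so the OE-high Fbxl19 list was matched to them by its name and their titles. Replicates have no values here, so numbers shared between groups pair nothing.

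The members, comparisons and rules were chosen with earlier results of these data known. Regions named are the 10 with the highest score, the 5 longest, the 5 each with the most Fbxl19 and Rnf20 peaks, the longest run, and the 3 on each side of the rule's threshold; the dense windows, other parts of the chromosome 7 stretch and single domains of the run were picked after their values were seen. No mm9 genes or sequences were used here. Overlap counting was tested on simulated intervals. Calculations used Python 3.11.15, NumPy 2.4.6, SciPy 1.17.1 and pandas 2.3.3, and figures matplotlib 3.10.9.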

Additional observations from a re-analysis of the deposited data

How the results depend on the processing

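No paired analysis was possible because the lists combine their samples, and for the same reason no replicate could be left out. Of 89 values under an alternative, over 13 results, 51 stayed within the counting interval (for the number of members, within 1.5 times) and 38 moved. None of the 28 alternative values of the 4 differences in Fbxl19 and Rnf20 shares changed sign. The number of members was 4066 with the top 50% of the other lists, 275 with the top 50% of the OE-high list and 4706 by absence from the ES list alone. In the same order the median length was 17500, 12800 and 18800 bp, of which the second stayed within its interval, and the median score 9.77, 13.1 and 10.4. Counting a domain as shared only if 50% of it was covered gave medians of 18200 bp and 8.98, and domains of at least 2 kb gave 14000 bp. With 50% of the peak inside the domain the shares of members were 40.4% for OE-high Fbxl19, 6.11% for OE-low Fbxl19 and 16.6% for Rnf20, and 7.92% of Fbxl19 peaks lay in members. A peak within 1 kb gave 9.27% for OE-low Fbxl19 and 21.3% for Rnf20. The top 50% of peaks gave 28.4%, 4.09% and 11% for OE-high Fbxl19, OE-low Fbxl19 and Rnf20. As many Fbxl19 as Rnf20 peaks gave 34.4%, domains of at least 2 kb 52.7% for Fbxl19, and the top 50% of the OE-high list 22.5% for Rnf20. The share with an Fbxl19 summit at an end was 32.1% within 500 bp, 43.7% within 2 kb, 40.7% in domains of at least 5 kb and 5.08% with OE-low summits. Against differentiated-shared domains the Fbxl19 difference was -16.4 points weighted on length, -10.8 on length and score, and -12.7 with the top 50% of peaks; for Rnf20 it was -7.05, -3.93 and -6.25. Against ES-shared domains the Fbxl19 difference was -20.4, -9 and -21.7 points, and the Rnf20 difference was -18.9 on length and score and -20.6 with the top 50% of peaks. Autosomes only, members by a 1 kb distance, leaving out chromosome 8 and leaving out the run on chromosome 2 moved none of the values they were run on beyond the interval. Weighted differences have no interval of their own. The weights and the settings that leave out chromosome 8 or the run were chosen after seeing the data. The cause of these changes was not tested beyond what each setting does by construction. Depth per sample is unknown, so what a deeper library would add to any list was not measurable.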
